A study of Mus musculus with 26 samples.

Results

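Fetal germ cells of the mouse ovary at E11.5, an embryonic day, were described from single-cell counts of polyadenylated RNA. They are the 131 cells of that stage that were put in the BVSC gate by the deposited cell table, a gate named after both germ cell reporters, and held Anxa5 below a limit of 100 CPM (counts scaled to the same total in every cell). They stand among 1881 cells of 26 libraries, and 61 came from library 1 and 70 from library 7. The BVSC gate at E11.5 held 133 cells in all, and the Anxa5 limit, set on transcripts of somatic cells, left out 2 of them with 113 and 135 CPM. The 3 cells closest to the limit on the inside had 81.3, 70.5 and 56.6 CPM.

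The study profiled female gonads from E11.5 to E18.5. All groups, Negative cells included, came from mice that carry both BVSC transgenes (Blimp1-mVenus, driven as Prdm1 is, and Stella-ECFP, driven as Dppa3 is). The deposited cell names mark every group as WT and 2N. E11.5 gonads were called female by the absence of Sry in a PCR and older ones by their shape, and gonads of several embryos were pooled for each stage, digested with trypsin, sorted and picked by mouth. E11.5 germ cells were compared with 140 germ cells of E12.5, chosen the same way from libraries 8 and 9, with 147 of E13.5 from libraries 3 and 10, and with 46 cells of the Negative gate at E11.5, from libraries 1, 2 and 7. The gates are called as in the deposited cell table, and the labels do not spell out their settings. No label ties a library to an animal, and the p-values therefore speak only of how far libraries differ, possibly for technical reasons.

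Primordial germ cells reach the genital ridge shortly before this stage. They still express pluripotency factors, divide, and erase most of their DNA methylation, including that at imprinted loci and at promoters of germline genes. In the female they then leave mitosis and enter meiosis under BMP and retinoic acid signals, with Stra8 as a key gene of entry.

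The counts are unique molecular identifiers (UMIs), which count captured RNA molecules. Levels below are CPM of the 16344 genes read, on chromosomes 1 to 7, 10 and X and the start of 8. These genes took 51.2% of the deposited UMIs in the median cell. E11.5 germ cells had a median of 159869 UMIs in these genes (range 8459 to 271383), E12.5 germ cells 153236 and E11.5 Negative cells 50217.5. Cells of each library and gate were summed into pools, and a library is 1 replicate. The cell names mark libraries 1 and 2 of E11.5 both as replicate R1, and library 7 as R2. Libraries 4, 5 and 12 of E14.5 likewise share R1. Comparisons with Negative pools still counted libraries 1 and 2 apart. That of the gates called 1868 genes, and 1961 without library 2. With libraries merged by this label, the E11.5 against E12.5 comparison of germ pools called 7 genes. Libraries 1 and 7 share 52 cell numbers among their germ cells, and no cell had counts identical to those of another.

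As pools, the cells bore the identity that the sort gave them. Dppa3, which protects the maternal genome in the zygote, had 1476 and 1834 CPM in the E11.5 germ pools of libraries 1 and 7, against 235, 97.5 and 307 CPM in the Negative pools of libraries 1, 2 and 7. Prdm1, the specifier of the germ lineage, had 167 and 143 CPM in germ pools against 7.16, 5.57 and 8.11 CPM in Negative pools. Both are the sort's own reporters, so these levels are a check and not a result. Markers of early gonadal somatic cells summed over the 6 measured genes to 61.1 and 148 CPM in germ pools and to 2958, 3791 and 3063 CPM in Negative pools, and most of the germ sum was Nr0b1 (33.8 and 116 CPM). The pregranulosa list summed to 21.7 and 13.2 CPM in germ pools against 1241 to 2379 CPM in Negative pools, and the stroma list to 20.3 and 26 CPM against 476 to 1615 CPM. Postn was at 0 in both germ pools.

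Blood transcripts were present in the germ pools, at levels that differed between libraries of the same stage. The erythroid list summed to 715 and 347 CPM in E11.5 germ pools, while E11.5 Negative pools had 392 to 1952 CPM. At E12.5 germ pools had 213 CPM in library 8 and 7.20 CPM in library 9. Negative pools of E12.5 had 211 CPM in library 8 and 27.9 CPM in library 9. None of its 4 tested genes passed between the stages. A single cell of library 1 had 17399 CPM of the macrophage list, the next highest cell 518 CPM and the median of the others 24.5 CPM. That cell had 390 CPM of Dppa3, the lowest level among the 131 germ cells. Single E11.5 Negative cells had 32.3 to 584 CPM of Dppa3. The cell had 26 CPM of Prdm1, 26 CPM of Nanog, 90.9 CPM of Sox2 and 64.9 CPM of L1td1. Whether it is a germ cell was not tested. The part of blood transcripts in the results was not tested, but without this cell the E11.5 against E12.5 comparison called 7 genes, as it did with it.

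The 4 markers that name this stage, Lefty2, L1td1, Sox2 and Nanog, were chosen for their level in these cells, so their values between stages are a description. L1td1, an RNA-binding protein of pluripotent cells, had 629 and 607 CPM at E11.5, 442 and 442 CPM at E12.5 and 186 and 294 CPM at E13.5. The E11.5 pools lay above all 4 later ones. Sox2, the pluripotency factor, had 597 CPM in library 1 and 283 CPM in library 7 at E11.5, on either side of the 330 and 444 CPM of E12.5. Nanog, another core factor, had 319 and 483 CPM at E11.5, which likewise straddled the 386 and 354 CPM of E12.5. Lefty2, a secreted inhibitor of Nodal, had 43.4 and 192 CPM at E11.5 against 22.1 and 34.9 CPM at E12.5, and the pools did not overlap. In single cells, however, library 1 of E11.5 had a median of 7.12 CPM, below the 8.23 and 16.6 CPM of the E12.5 libraries.

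None of the pluripotency genes passed the test between E11.5 and E12.5. Of 23 listed genes 14 were measured and 13 tested with edgeR's quasi-likelihood test, and the median log2 fold change was 0.14, beside 0.00 over all 9997 genes tested. Without library 7 the median was -0.09, with 8 of 13 folds below 0. Sall4, a zinc finger factor of germ cells, had 644 and 502 CPM at E11.5 and 480 and 653 CPM at E12.5. Tfap2c, which acts with Prdm1 in specification, had 369 and 413 CPM at E11.5 and 412 and 339 CPM at E12.5. Utf1, a chromatin factor of pluripotent cells, had 1046 and 1306 CPM at E11.5 and 1139 and 1304 CPM at E12.5. For these 3 genes the spread between libraries of a stage covered the difference between stages. Against the Negative gate 12 of the 13 had germ pools all above the Negative pools, beside 29.6% of all genes tested. By the test 12 were higher and 1 lower, where 12.8% and 14.1% of all 6953 genes tested were called higher and lower. Among the 12 were the sort's reporters Prdm1 and Dppa3. Nanog, Sox2 and L1td1, markers chosen for their level in these cells, were among them too. For the reporters and the markers a higher level was given by the choice and is not a result. Sall4 had 46.1, 25.1 and 23 CPM in Negative pools and was 4.19 ± 0.38 (SE) higher in germ pools on the log2 scale (edgeR adjusted p = 7.49e-06). Tfap2c had 24.6, 2.79 and 18.2 CPM in Negative pools and was 4.52 ± 0.51 higher (adjusted p = 3.68e-05). The exception was Klf4, a zinc finger factor that is also an early response gene, with 24.2 and 3.55 CPM in germ pools against 376, 883 and 98.7 CPM in Negative pools (log2 fold -4.92 ± 1.02, adjusted p = 0.00331).

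The E11.5 libraries differed from each other in the ligand and the secreted inhibitors of the Nodal pathway, a TGF-beta type signal that sustains pluripotency. Pools of libraries 7 and 1 had 66.9 and 18.6 CPM of the ligand, Nodal. They had 192 and 43.4 CPM of Lefty2 and 110 and 19.8 CPM of Lefty1, its close relative and also an inhibitor of the ligand. At E12.5 the pools had 31.8 and 21.5 CPM of Nodal and 22.6 and 18.5 CPM of Lefty1. Of the 8 measured genes of the list 4 were higher in library 7, 3 were lower and 1 was at 0 in both. The lower ones were Cfc1, a co-receptor of Nodal, with 0.364 CPM in library 7 and 5.04 CPM in library 1, the receptor gene Acvr2a and Skil, an inhibitor of Smad proteins. For Nodal, Lefty1 and Lefty2 library 7 lay above both E12.5 pools, while library 1 lay below both for Nodal. Lefty1 and Lefty2 are close paralogues, and reads could be split between them. None of the 8 tested genes of the pathway passed the test between stages (median log2 fold 0.89), and without library 7 the median was -0.11, with 5 of 8 folds below 0. Between gates Nodal, Lefty1 and Lefty2 were higher in BVSC pools, 3 of 5 tested beside 12.8% of all genes, and Lefty2 is a marker chosen for its level. Without library 7 none of the 3 passed (edgeR adjusted p = 0.111 to 0.204).

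Single cells of the libraries are described here, with intervals that cover counting error only. Lefty2 had at least 1 UMI in 66 of 70 cells of library 7 (94.3%, exact 95% interval 86% to 98.4%) and in 39 of 61 of library 1 (63.9%, 50.6% to 75.8%). With each cell thinned to 30000 UMIs, which left out 2 shallower cells in each library, the shares were 85.3% and 35.6%, against 14.7% of 34 Negative cells at the same depth. Thinned E12.5 germ cells had shares of 27.9% in library 8 and 45.6% in library 9, on either side of that of library 1. Median Lefty2 levels per cell were 159 CPM in library 7 and 7.12 CPM in library 1, against 8.23 CPM in library 8 and 16.6 CPM in library 9. Across the 70 cells of library 7 the levels of Lefty1 and Lefty2 had a Spearman correlation of 0.51, and across the 61 of library 1 the value was 0.13, both over cells that share a library and differ in depth. Nr0b1, a nuclear receptor that pluripotent cells also express, followed the same pattern, with median levels of 98.9 CPM in library 7 and 7.12 CPM in library 1. It is also a gene of the gonadal soma, with 192, 315 and 251 CPM in the Negative pools.

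**Figure D1:**
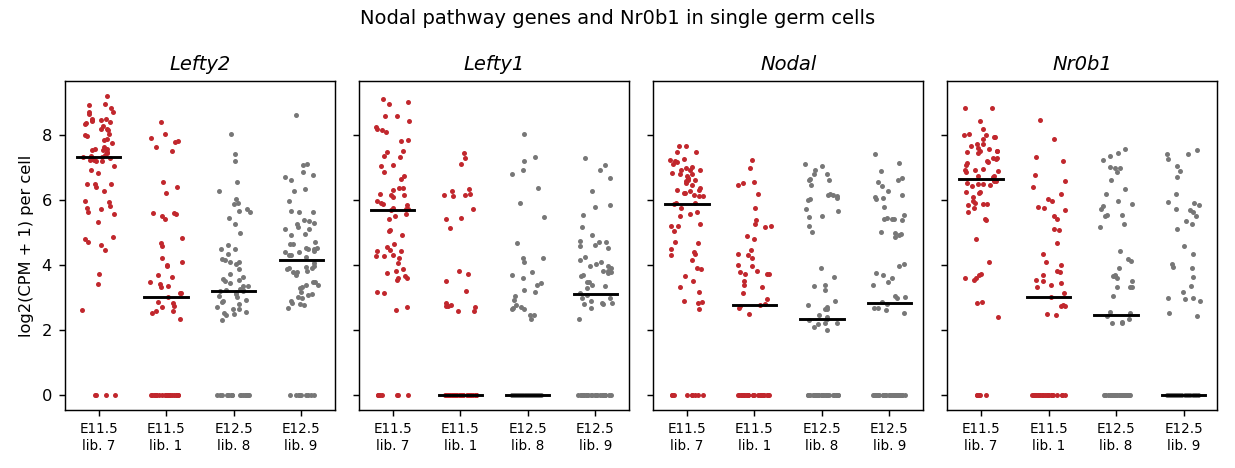
Levels of 3 Nodal pathway genes and Nr0b1 in single germ cells of E11.5 (red, libraries 7 and 1) and E12.5 (grey, libraries 8 and 9), as log2(CPM + 1). Each point is 1 cell and each bar the median of a library. Most cells of library 7 lie above the medians of the other 3 libraries for Lefty2, Lefty1, Nodal and Nr0b1.

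The libraries differed in other genes as well. Of 4643 tested genes with at least 20 CPM in either pool, 26 were at least 4-fold higher and 49 at least 4-fold lower in library 7 than in library 1, with 1 CPM added to each. The same count between the E12.5 libraries was 6 and 15 of 4672, and between the E13.5 libraries 18 and 74 of 4919. The 7 genes with the largest ratio in favour of library 1, led by C1qb and Fcer1g, are genes of macrophages that library 7 listed at 0, and the single macrophage-marker cell came from library 1. Gata2, a transcription factor that BMP induces in germ cells, had 30.6 CPM in library 7 and 133 CPM in library 1. Id1, a direct BMP target, had 115 CPM in library 7 and 302 CPM in library 1. Cd59a, an inhibitor of complement, had 175 CPM in library 7 and 21.2 CPM in library 1, and Reg3g, a secreted lectin, 43.4 CPM in library 7 and 5.29 CPM in library 1, where the E12.5 pools had 0.0753 and 0 CPM. With a single pool on each side there is no test of these differences.

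A small group of germline genes was lower at E11.5 than at E12.5. Of 9997 genes tested 7 passed an adjusted p of 0.05, which is 0.07%, and all 7 were lower at E11.5, while 432 had an unadjusted p under 0.05. Sycp1, the transverse filament of the synaptonemal complex, had 53.9 and 27.9 CPM at E11.5 and 132 and 125 CPM at E12.5. Mael, a protein that silences transposons in germ cells, had 91 and 50.8 CPM at E11.5 and 256 and 197 CPM at E12.5. Scml2, a germline Polycomb protein encoded on the X chromosome, had 14.9 and 17.8 CPM at E11.5 and 62.1 and 68.5 CPM at E12.5. Slc25a31, an ADP/ATP carrier of the mitochondria in germ cells, had 101 and 95.8 CPM at E11.5 and 257 and 255 CPM at E12.5. In none of these 4 genes did the pools of the stages overlap, but this was a condition for naming them and is not a result. In the lower direction it was also the case for 16.9% of all genes tested. The log2 fold of E11.5 over E12.5 was -1.63 ± 0.26 for Sycp1 (SE; edgeR adjusted p = 0.0189) and -1.64 ± 0.28 for Mael (adjusted p = 0.0233). It was -1.94 ± 0.34 for Scml2 (adjusted p = 0.0233) and -1.33 ± 0.24 for Slc25a31 (adjusted p = 0.0264).

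The spread behind these tests came from the 18 germ pools of all stages. A fit of the 4 E11.5 and E12.5 pools alone called 0 of 7466 genes, with 375 at an unadjusted p under 0.05, and without library 7 the full fit called 3 genes, against 7 without library 1. Each of the 4 genes lost its call when some library was left out. Sycp1 lost it without library 7 (edgeR adjusted p = 0.237), and Mael without library 7 (0.286) or library 8 (0.166). Scml2 lost it without library 1 (0.253), 7 (0.117) or 9 (0.0853). Slc25a31 lost it without any 1 of the 4 libraries (0.135 to 0.253). The other 3 called genes, named after their values were seen, were the long noncoding RNA Gm28050, at 0 in both E11.5 pools and 7.38 and 4.26 CPM at E12.5, and the X-linked pair Gm14692 and Gm1140. That pair had the same 0 and 0 CPM at E11.5 and 3.09 and 4.04 CPM at E12.5 in both genes, so their reads cannot be assigned with certainty.

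Both E11.5 pools lay below all 16 later germ pools for Sycp1, Mael, Scml2 and Slc25a31. These genes were named for E11.5 pools below the E12.5 pools, so that part was fixed by the choice. The share of all genes with this pattern was not counted. Mael had 91 and 50.8 CPM at E11.5, 701 and 572 CPM at E13.5 and 1189 and 1689 CPM at E18.5. Sycp1 reached 2671 and 3018 CPM at E16.5. In Negative pools of E11.5 Sycp1 had at most 1.02 CPM and Mael at most 4.09 CPM, while Scml2, with 22.5, 2.79 and 8.79 CPM there, was not called between the gates (log2 fold 0.45 ± 0.86, adjusted p = 0.723). The change between the stages was not shown to differ between the gates for any of the 4 genes: the difference of log2 folds was 0.33 ± 1.33 for Sycp1, 0.96 ± 1.13 for Mael, -1.86 ± 1.29 for Scml2 and 0.23 ± 0.87 for Slc25a31 (edgeR adjusted p = 1.00 for each). Of 14 germline genes known to be repressed by promoter methylation 7 had such a difference below 0, beside 47.4% of all genes. Over 6953 genes tested for that difference 0.0% passed, and 224 had an unadjusted p under 0.05; DESeq2 called 3.

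**Figure D2:**
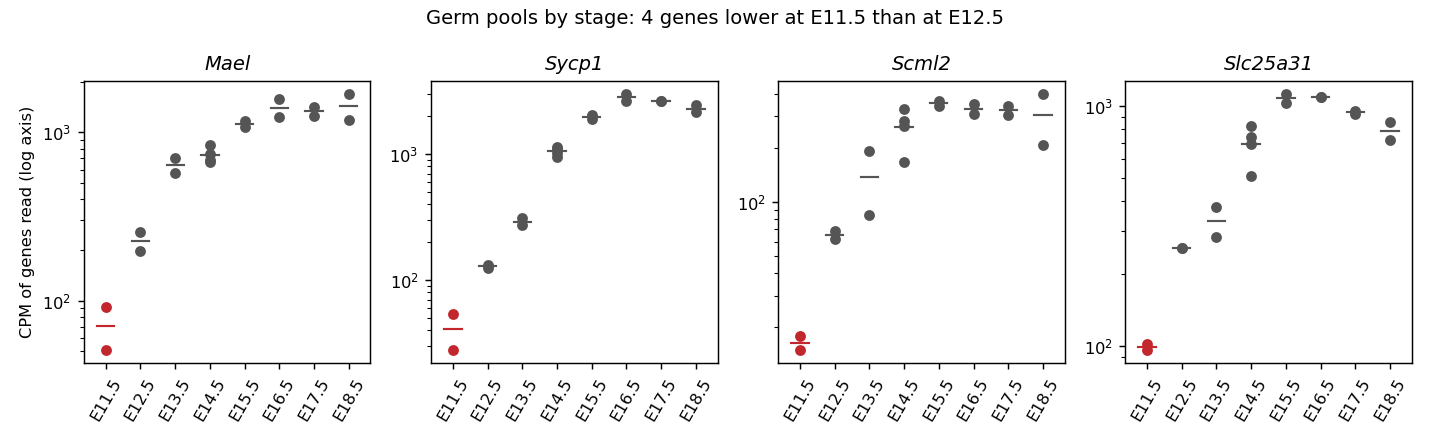
CPM of Mael, Sycp1, Scml2 and Slc25a31 in the germ pools of each stage, on a log axis. Each point is the pool of 1 library, each bar the mean of a stage, and E11.5 is in red. The E11.5 pools are the lowest in every panel, and the genes were chosen for E11.5 pools below those of E12.5.

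The share of cells with a UMI of these genes was smaller in both E11.5 libraries than in both E12.5 libraries, which is a description over libraries with no test. The genes were chosen for lower E11.5 pools of the same cells, so the direction of these shares follows in part from that choice. In cells thinned to 30000 UMIs, Sycp1 had a UMI in 44.1% of library 1 and 22.1% of library 7 at E11.5, in 61.8% of library 8 and 69.1% of library 9 at E12.5, and in 5.88% of 34 Negative cells. Unthinned, the shares were 51.1% of E11.5 cells, 85.7% of E12.5 cells and 4.35% of Negative cells. Mael had a UMI in 66.1% and 51.5% of thinned cells of the E11.5 libraries and in 97.1% and 82.4% of those of E12.5. For Slc25a31 the shares were 69.5% and 69.1% at E11.5 and 98.5% and 97.1% at E12.5, and for Scml2 25.4% and 26.5% at E11.5 and 60.3% and 51.5% at E12.5. The shares in thinned Negative cells were 8.82%, 17.6% and 5.88%. Upper quartiles of Sycp1 per cell were 48.2 CPM at E11.5 and 193 CPM at E12.5, and those of Mael 87.6 and 316 CPM. Single E11.5 cells with as much as 326 CPM of Sycp1 and 333 CPM of Mael were present.

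The promoters of the 4 genes are shown because 3 of them hold the same word, CACGTG, the core that bHLH factors of the Max family bind. Each is the RefSeq window of 250 bases before to 50 bases after the gene start on GRCm38.p6, read 5′ to 3′ on the strand of the gene, with CACGTG in capitals. The genes lie, by GENCODE on GRCm38, at chr3:102818499-102936100 (Sycp1), chr1:166201201-166238747 (Mael), chr3:40708855-40726096 (Slc25a31) and chrX:161117193-161258213 (Scml2), whose RefSeq start lies inside the GENCODE gene. The windows are chr3:102936051-102936350 (minus strand) for Sycp1, chr1:166238695-166238994 (minus) for Mael, chr3:40708621-40708920 (plus) for Slc25a31 and chrX:161162500-161162799 (plus) for Scml2.
Sycp1: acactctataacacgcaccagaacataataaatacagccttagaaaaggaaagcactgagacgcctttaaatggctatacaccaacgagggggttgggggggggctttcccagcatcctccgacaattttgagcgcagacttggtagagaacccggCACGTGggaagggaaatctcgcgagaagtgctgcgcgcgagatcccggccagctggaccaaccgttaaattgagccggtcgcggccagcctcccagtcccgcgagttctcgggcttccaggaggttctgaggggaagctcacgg
Mael: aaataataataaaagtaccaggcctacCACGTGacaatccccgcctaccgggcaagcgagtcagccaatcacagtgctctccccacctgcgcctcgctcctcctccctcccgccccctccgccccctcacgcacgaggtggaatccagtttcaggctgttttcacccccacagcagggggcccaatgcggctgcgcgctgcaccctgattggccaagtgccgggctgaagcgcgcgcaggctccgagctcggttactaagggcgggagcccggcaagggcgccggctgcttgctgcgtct
Slc25a31: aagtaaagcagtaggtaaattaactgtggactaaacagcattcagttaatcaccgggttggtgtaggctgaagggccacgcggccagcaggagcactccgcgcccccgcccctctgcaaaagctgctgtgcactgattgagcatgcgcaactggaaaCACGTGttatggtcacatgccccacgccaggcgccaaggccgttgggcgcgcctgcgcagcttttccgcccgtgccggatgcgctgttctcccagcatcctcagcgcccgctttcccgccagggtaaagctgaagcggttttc
Scml2: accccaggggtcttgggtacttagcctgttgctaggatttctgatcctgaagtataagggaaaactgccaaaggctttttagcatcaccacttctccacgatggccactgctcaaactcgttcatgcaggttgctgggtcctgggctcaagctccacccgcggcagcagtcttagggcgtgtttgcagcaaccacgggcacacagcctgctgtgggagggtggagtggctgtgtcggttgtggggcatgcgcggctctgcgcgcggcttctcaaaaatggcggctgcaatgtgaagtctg

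CACGTG, which reads the same on both strands, begins 94 bases before the start of Sycp1, 223 before that of Mael and 93 before that of Slc25a31, and is not in the Scml2 window. Over all 32851 RefSeq promoters 7.15% hold it, and of the 7602 promoters matched to tested genes 9.41%. The windows hold 21, 24, 22 and 13 CG dinucleotides in Sycp1, Mael, Slc25a31 and Scml2, beside a median of 17 over tested genes. A match describes the letters of the window and shows no binding.

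Sycp1, Mael and Slc25a31 belong to a list of germline genes known to be held silent in somatic cells by promoter methylation. Of its 21 genes 14 were tested, and all 14 had a log2 fold change below 0 between E11.5 and E12.5, as had 45.6% of all genes tested. The 3 named genes passed the test, 3 of 14 beside 0.07% of all genes tested, and the median fold change was -0.80, beside 0.00 over all genes. Without library 1 there were 12 of 14 folds below 0 and without library 9 there were 13. Without library 7 the median was -1.32, and with upper-quartile scaling none of the list passed. In 10 of the 14 genes both E11.5 pools lay below both E12.5 pools, as was the case for 16.9% of all genes tested. Tuba3a, an alpha tubulin of the testis, had 114 and 152 CPM at E11.5 against 366 and 304 CPM at E12.5 and did not pass (adjusted p = 0.307). Hormad1, an axis protein of meiotic chromosomes, had 159 and 213 CPM at E11.5 and 350 and 326 CPM at E12.5 (adjusted p = 0.652). Other members differed less: Fkbp6, a piRNA pathway cochaperone, had 590 and 498 CPM at E11.5 and 741 and 720 CPM at E12.5. Of 13 members with a matched promoter 9 hold CACGTG, or 69.2%, namely Mael, Slc25a31, Hormad1, Sycp1, Brdt, Fkbp6, Stk31, Sycp3 and Taf7l. Asz1, Tuba3a, Tex101 and Rhox13 do not. The word was shown because Mael, Slc25a31 and Sycp1 hold it, so these 3 of the 9 were fixed by that choice. CACGTG contains a CG, and the windows of the list hold a median of 21 CG dinucleotides, beside 17 over tested genes. The part of CG content in the count was not tested. The list of the pluripotency factors, with 8 matched promoters among tested genes, had 1.

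**Figure D3:**
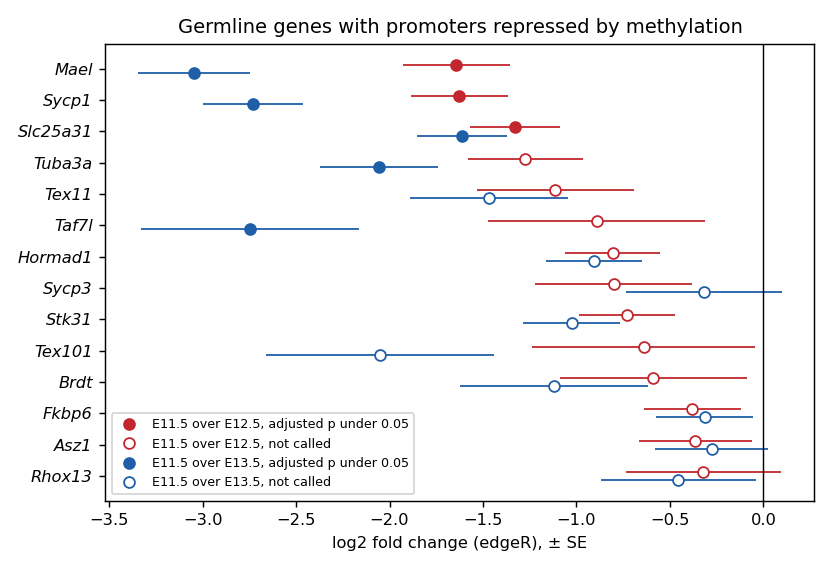
Log2 fold changes of 14 germline genes of the promoter methylation list, E11.5 over E12.5 in red and E11.5 over E13.5 in blue, with standard errors. Filled points passed an adjusted p of 0.05 in edgeR. All points lie left of 0, and 3 red and 5 blue points are filled.

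Every one of these genes but Taf7l and Sycp3 was higher in BVSC than in Negative pools at E11.5, 12 of 14 in all beside 12.8% of all genes tested. Without library 7 the count was 8. Taf7l, a paralogue of a general transcription factor subunit, was the exception with 1.599 and 6.83 CPM in germ pools against 253, 323 and 141 CPM in Negative pools (log2 fold -5.72 ± 1.32, edgeR adjusted p = 0.00618, and 0.108 without library 1). Sycp3, an axial element protein, had 14.4 and 8.56 CPM in germ pools against 1.02, 0 and 10.1 CPM in Negative pools and did not pass (adjusted p = 0.485). Of the 9 tested genes of piRNA and transposon defence 8 had a fold below 0 against E12.5, beside 45.6% of all genes tested. Mael alone passed, beside 0.07% of all genes, and it is counted in the methylation list as well. Gpat2, an acyltransferase needed for piRNAs, had 63.1 and 71.6 CPM at E11.5 and 139 and 147 CPM at E12.5 (adjusted p = 0.430). Tdrd12, a Tudor protein of the same pathway, had 155 and 244 CPM at E11.5 and 246 and 175 CPM at E12.5, overlapping between the stages.

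Stra8 was not detected at E11.5, and no recombination gene passed against E12.5. Of the 6 tested recombination genes 5 had a fold below 0 against E12.5 (median -1.37) and none passed. Of the 7 of the synaptonemal complex 5 had a fold below 0 (median -0.52), and Sycp1, also counted in the methylation list, was called. Over all genes tested 45.6% had a fold below 0 and 0.07% were called. Stra8 had 0 UMIs in both E11.5 pools, against 4.14 and 17.46 CPM at E12.5 and 440 and 172 CPM at E13.5. No E11.5 cell held a Stra8 UMI. For thinned cells that is 0 of 59 in library 1, which allows a share of cells with a UMI of up to 5.08%, and 0 of 68 in library 7, which allows up to 4.41%. The shares were 2.94% in library 8 and 13.2% in library 9 at E12.5. These limits are for cells with a captured UMI, not for cells that express the gene. With both libraries of a stage merged, 3 UMIs over the group were taken as the limit. By that limit E11.5 was at least 61-fold lower than E12.5 and at least 1868-fold lower than E13.5. These bounds cover counting error only and not the spread between libraries, so a single library can lie closer to E11.5. The test against E12.5 did not pass (adjusted p = 0.246) and that against E13.5 did (adjusted p = 0.000423). Spo11, the enzyme that makes meiotic breaks, had 6.52 and 10.8 CPM at E11.5, 32.2 and 24.3 CPM at E12.5 and 57.7 and 20.9 CPM at E13.5. It passed the test against E13.5 (log2 fold -1.97 ± 0.45, adjusted p = 0.0415) and not against E12.5 (adjusted p = 0.491). The call was lost without library 1 (edgeR adjusted p = 0.282) and without library 3 (0.618). Rnf212, a crossover factor, had 0 UMIs at E11.5 and 1.96 and 2.18 CPM at E12.5. With libraries merged as for Stra8, that is at least a 13.1-fold difference by counting error alone.

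Of the 9 tested genes of the retinoic acid and BMP list 0 passed against E12.5 and 1, Stra8, against E13.5. Over all genes tested 0.07% and 0.88% passed. Msx1, a homeobox factor that BMP induces, had 17.2 and 8.19 CPM at E11.5 against 71.3 and 88.3 CPM at E12.5 (log2 fold -2.63 ± 0.74, adjusted p = 0.491). Gata2 had 133 and 30.6 CPM at E11.5 against 124 and 168 CPM at E12.5, so that library 1 lay within the E12.5 range. Id3, another BMP target, had 992 and 1088 CPM at E11.5 and 925 and 1026 CPM at E12.5. Ccnd1, a D-type cyclin, had 0.615 and 2.64 CPM at E11.5, 12.8 and 25.6 CPM at E12.5 and 90.5 and 51.1 CPM at E13.5. It passed against E13.5 (log2 fold -5.20 ± 0.98, adjusted p = 0.00878) and not against E12.5 (adjusted p = 0.430), and without library 1 it did not pass against E13.5 either (adjusted p = 0.0715).

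Over the longer step to E13.5 there were 88 called genes, or 0.88% of 9997, of which 84 were lower at E11.5 (0.84%) and 4 higher (0.04%). The methylation list had 5 of 14 called lower, with Taf7l and Tuba3a besides the 3 above, and a median log2 fold of -1.29; all 14 had a fold below 0, beside 47.7% of all genes tested. Taf7l lost its call without library 1 (edgeR adjusted p = 0.141) and without library 3 (0.675), and the other 4 were called with any 1 of the 4 libraries left out. Mael had a log2 fold of -3.05 ± 0.30 and Sycp1 of -2.73 ± 0.27 (edgeR adjusted p = 1.03e-05 for each). Of 56 lower genes with at least 20 CPM at E13.5 and pools that did not overlap, the 12 lowest folds were those of Stra8, Ccnd1, Ago4, Zfp711, Batf3, Ccdc136, Slc35f5, N4bp2l1, Gchfr, Lonrf2, Osbpl6 and Samd10. Ago4, an Argonaute protein, had 0 UMIs at E11.5, 0 and 5.45 CPM at E12.5 and 39.6 and 5.45 CPM at E13.5. Osbpl6, an oxysterol-binding protein, had 2.95 and 3.55 CPM at E11.5, 33.9 and 28.7 CPM at E12.5 and 52 and 42.5 CPM at E13.5. Of the 12 genes Stra8, Zfp711, Ccdc136 and Slc35f5 were called with any 1 of the 4 E11.5 and E13.5 libraries left out. Osbpl6 lost its call whichever of them was left out (edgeR adjusted p = 0.0566 to 0.249). Ago4, N4bp2l1 and Gchfr lost their calls without library 1, 7 or 3 (adjusted p = 0.0581 to 0.219). Batf3 and Samd10 lost theirs without library 1 or 3 and Lonrf2 without library 7 or 3 (adjusted p = 0.0551 to 0.402).

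Acer2 and Gng12 were the 2 named genes that were higher at E11.5, and both calls rest on libraries 7 and 3. Acer2, an alkaline ceramidase of the Golgi, had 238 and 335 CPM at E11.5, 177 and 153 CPM at E12.5 and 35.3 and 73.9 CPM at E13.5 (log2 fold over E13.5 2.47 ± 0.51, adjusted p = 0.0171). Gng12, a G protein gamma subunit, had 414 and 621 CPM at E11.5, 368 and 393 CPM at E12.5 and 170 and 217 CPM at E13.5 (log2 fold 1.54 ± 0.33, adjusted p = 0.0217). Without library 7 neither passed (edgeR adjusted p = 0.138 for Acer2 and 0.291 for Gng12), nor without library 3 (0.325 and 0.399), where 0 genes were called higher. The E13.5 libraries differ from each other for many of the lower genes, library 3 being the higher, and 32 genes were called without library 3, 54 without library 7 and 124 without library 10. The E12.5 and E13.5 comparisons share the E11.5 pools.

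Against the Negative cells of the same gonads, 1868 of 6953 genes passed, or 26.9%, with 887 higher (12.8%) and 981 lower (14.1%) in germ pools. The count was 794 without library 1 and 1066 without library 7. Negative pools held 15, 8 and 23 cells and were shallower per cell, and their part in these results was not tested. All 18 tested S phase genes had a fold above 0 and 10 passed, against 2 without library 1. Mcm2, a subunit of the replicative helicase, had 554 and 554 CPM in germ pools against 154, 159 and 214 CPM in Negative pools (log2 fold 1.67 ± 0.31, adjusted p = 0.00148). Of 17 genes of G2 and M phase 16 had a fold above 0 (median 0.81, and 0.32 without library 2) and none passed. Neither list held a call against E12.5, where the medians were 0.04 and 0.05, and -0.06 and -0.18 without library 7. Ccnd2, a D-type cyclin, was lower in germ pools, with 14.3 and 25.8 CPM against 610, 588 and 516 CPM (adjusted p = 1.64e-05). Cdkn1b, a brake on the cycle, had 27.2 and 19.8 CPM in germ pools against 189, 170 and 101 CPM in Negative pools (adjusted p = 0.00443, and 0.0683 without library 1).

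Energy metabolism was read from the genes of oxidative phosphorylation and glycolysis. None of the 20 tested genes of oxidative phosphorylation passed between gates. Of 14 glycolysis genes 2 were higher and 5 lower in germ pools, beside 12.8% and 14.1% of all genes, and without library 1 the 5 became 3. Ldha, lactate dehydrogenase A, had 136 and 307 CPM in germ pools against 1503, 1816 and 1483 CPM in Negative pools (log2 fold -2.80 ± 0.33, adjusted p = 4.81e-05), and Tpi1, triose phosphate isomerase, 260 and 423 CPM against 1317, 1420 and 1379 CPM. Slc2a3, a glucose transporter, was higher, with 175 and 219 CPM against 28.7, 16.7 and 15.54 CPM (adjusted p = 0.000309). Between E11.5 and E12.5 germ pools 13 of 15 glycolysis genes had a fold above 0 with a median of 0.28, beside 45.6% of all genes with a fold below 0, and none passed. Without library 7 the median was -0.03 and 8 of the 15 folds lay below 0.

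Of 28 tested imprinted genes 14 were lower in germ pools, beside 14.1% of all genes, and 3 were higher, which is near the 12.8% of all genes. Without library 7 there were 9 lower, and without library 1 there were 10. Cdkn1c, a maternally expressed inhibitor of the cycle, had 59.7 and 25.6 CPM in germ pools against 1770, 2888 and 699 CPM in Negative pools (log2 fold -5.31 ± 0.54, adjusted p = 1.71e-05), and H19, a maternally expressed noncoding RNA, 103 and 39.1 CPM against 1234, 2195 and 612 CPM. Sgce, paternally expressed, had 0.246 and 0.455 CPM against 89, 80.8 and 155 CPM. Phlda2, maternally expressed, was higher in germ pools, with 866 and 599 CPM against 100, 125 and 37.8 CPM (log2 fold 3.16 ± 0.37, adjusted p = 4.81e-05), and so were Snrpn and Sfmbt2, which are paternally expressed. No imprinted gene passed between E11.5 and E12.5.

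The Rhox homeobox cluster of the X chromosome was high in the germ cells, with 17 of 18 tested genes higher than in Negative pools, beside 12.8% of all genes, and 0 of 22 called against E12.5, beside 0.07%. Rhox5 had 1312 and 1367 CPM in germ pools against 145, 72.4 and 149 CPM in Negative pools, and Rhox8 was the exception with 35.8 and 50.9 CPM against 57.3, 36.2 and 39.9 CPM. The Rhox2 genes are near-identical copies whose reads may be shared. Of the surface and homing genes, Kit, the receptor for the migration and survival factor Kitl, had 333 and 271 CPM in germ pools against 39.9, 5.57 and 20.9 CPM (log2 fold 3.66 ± 0.55, adjusted p = 0.000315). Ifitm3, an early germ cell surface marker, had 1508 and 1503 CPM against 264, 329 and 381 CPM. Tet1, the methylcytosine oxidase, had 737 and 535 CPM against 215, 184 and 105 CPM (adjusted p = 0.000594), and Tet3 was lower, with 6.03 and 1.55 CPM against 135, 91.9 and 113 CPM. Dnmt3l was at 0 in every one of these pools.

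Of 9 tested surface and homing genes 4 were higher and 3 lower in germ pools, beside 12.8% and 14.1% of all genes. Alpl, the alkaline phosphatase by which primordial germ cells are stained, had 446 and 605 CPM in germ pools against 37.9, 8.36 and 54.7 CPM in Negative pools (log2 fold 3.83 ± 0.50, adjusted p = 0.000103). Itga6, a laminin receptor, was lower, with 24.1 and 24.9 CPM against 407, 685 and 426 CPM (adjusted p = 7.49e-06), and so was Podxl, a sialomucin, with 3.81 and 3.46 CPM against 345, 323 and 237 CPM. Among 14 tested genes of apoptosis and checkpoints 4 were higher and 3 lower, and without library 1 there were 1 higher and 2 lower. Bcl2, an inhibitor of apoptosis, had 3.32 and 0.455 CPM in germ pools against 140, 240 and 88.5 CPM in Negative pools (log2 fold -6.31 ± 0.89, adjusted p = 0.000207), and Bax, which promotes it, 812 and 940 CPM against 438, 521 and 546 CPM (log2 fold 0.84 ± 0.24, adjusted p = 0.0195). Bax lost its call when library 1 or 7 was left out (edgeR adjusted p = 0.135 and 0.0690). Chek2, a checkpoint kinase, had 201 and 200 CPM in germ pools against 18.4, 13.9 and 48 CPM. None of these genes passed between E11.5 and E12.5.

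Immediate early genes, which respond within minutes to growth factors and to dissociation, were lower in germ than in Negative pools, 5 of 6 tested beside 14.1% of all genes, and 3 without library 7. Jun had 132 and 37.1 CPM in germ pools against 1654, 2028 and 1302 CPM in Negative pools (log2 fold -4.25 ± 0.46, adjusted p = 2.46e-05). In E12.5 germ pools Jun had 10.0 and 8.84 CPM, below both E11.5 pools, and the difference did not pass (log2 fold 3.18 ± 0.71, adjusted p = 0.190). The list's median fold against E12.5 was 1.97 and 4 of 6 genes had E11.5 pools above E12.5 pools, where 12.6% of all tested genes did. The median was 1.04 without library 1 and 3.19 without library 9.

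**Figure D4:**
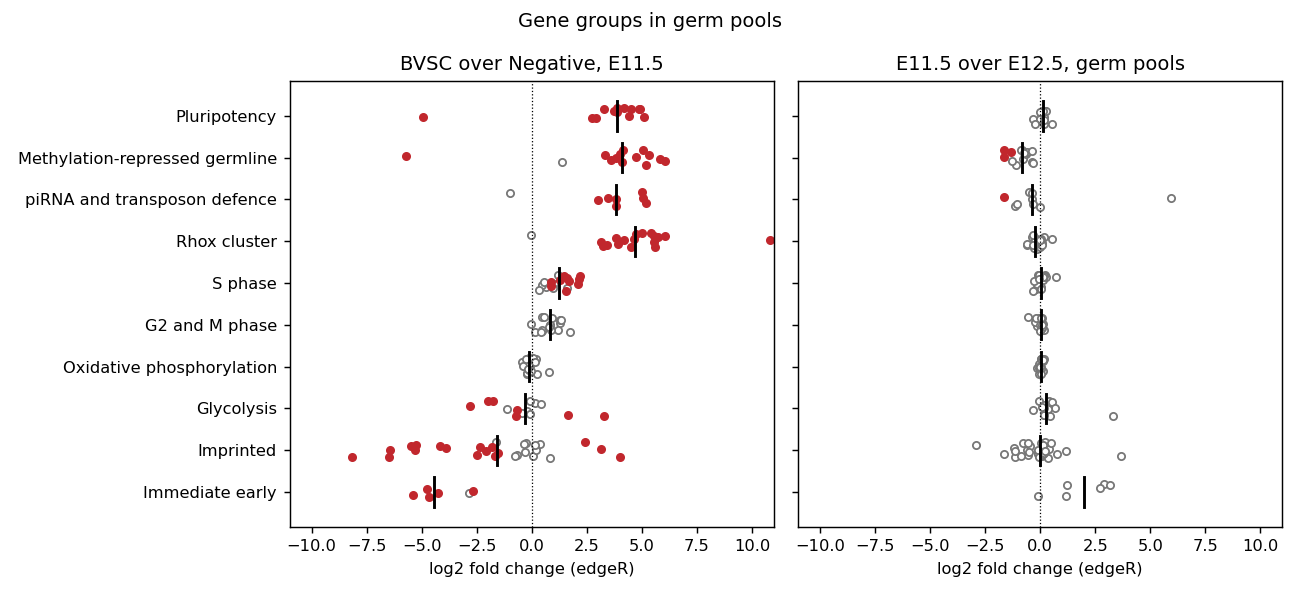
Log2 fold changes of 10 gene groups, BVSC over Negative pools at E11.5 on the left and E11.5 over E12.5 germ pools on the right. Each point is a gene, red where the edgeR adjusted p was under 0.05, and the bar is the median. Most groups that stand far from 0 on the left lie near 0 on the right, where the red points are Mael, Sycp1 and Slc25a31.

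X-linked genes gave a smaller share of UMIs in E11.5 germ cells than in any later germ pool. X-linked UMIs, over 1086 genes, came to 7.44% and 7.60% of autosomal UMIs, over 15166 genes, at E11.5, to 8.10% and 7.77% at E12.5, to 8.51% and 8.24% at E13.5 and to between 8.45% and 9.77% in the 12 pools from E14.5 on. The mean over the E11.5 pools was 1.37 percentage points below that of the 16 later germ pools (7.52% ± 0.11 against 8.89% ± 0.55, SD, n = 2 and 16; two-sided exact permutation p = 0.00654, the smallest possible). That p takes all pools as exchangeable, although pools share stages and the X-linked percent differed between the later stages. It therefore does not measure how unusual E11.5 is among stages. Against the E12.5 pools alone the difference was -0.41 points, where the smallest possible two-sided exact p is 0.333. Negative pools of E11.5 had 7.32%, 6.79% and 7.34%, all below both germ pools (mean difference 0.37 points, exact permutation p = 0.300, the smallest possible being 0.1). Later Negative pools had 7.20% in library 6 at E18.5 and between 7.36% and 8.01% otherwise. Among the E11.5 Negative pools only that of library 2, with 8 cells, lay below every later Negative pool. Those of libraries 1 and 7 lay between library 6 and the other later ones. Xist, the noncoding RNA of X inactivation, had 17.7 and 2.64 CPM in E11.5 germ pools against 286, 195 and 247 CPM in Negative pools (log2 fold -4.58 ± 0.84, adjusted p = 0.00139), and 1.58 and 6.44 CPM in E12.5 germ pools.

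**Figure D5:**
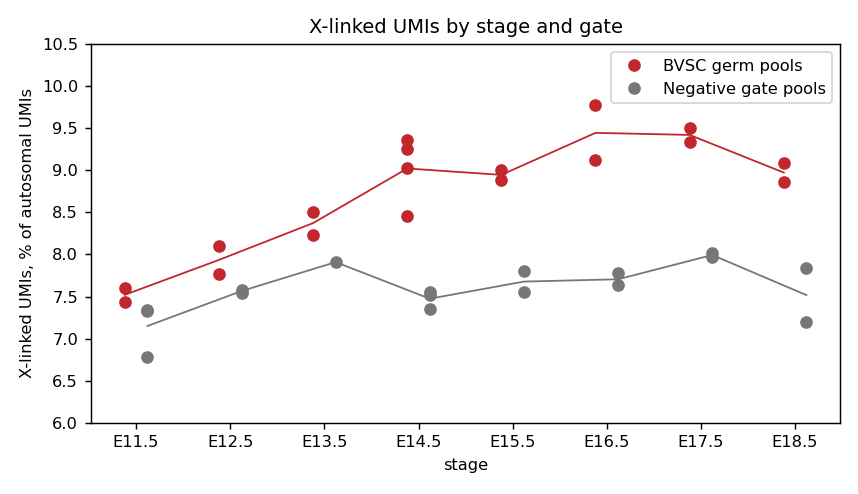
X-linked UMIs as a percent of autosomal UMIs in germ pools (red) and Negative pools (grey) by stage. Each point is the pool of 1 library and lines join the means of stages. The axis begins at 6%. The E11.5 germ pools, at 7.44% and 7.60%, are the lowest of the germ pools.

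Among single E11.5 cells the 4 marker genes differed in how evenly they were spread. L1td1 had a UMI in all 127 thinned cells, Nanog in 99.2% and Sox2 in 98.4%, against 55.9%, 61.8% and 35.3% of 34 thinned Negative cells, which had far lower levels (medians of 17.8, 23.5 and 0 CPM). Lefty2 had one in 62.2% of thinned E11.5 cells and 80.2% of unthinned ones. The list genes with the widest spread of log2(CPM + 1) over E11.5 cells besides these were Gata2, Lefty1, Sycp1, Rhox8 and Mael, with SDs of 3.05, 3.00, 2.99, 2.92 and 2.92. These SDs were taken over the cells of both libraries together, so they also hold the difference between the libraries. Gata2 had a UMI in 66.1% of thinned cells of library 1 and 35.3% of those of library 7, against 5.88% in Negative cells. Dppa3, by contrast, was in every cell, with the middle 50% of cells between 1475 and 1998 CPM.

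Over the 18 germ pools of all stages, the 5 genes whose levels ranked most like those of Lefty2 were Aph1a, Srrm4, 4930591A17Rik, Gm36595 and Myod1, with Spearman correlations of 0.91, 0.91, 0.91, 0.90 and 0.90 among 9996 genes compared. Aph1a, a subunit of gamma secretase, had 44 and 28.9 CPM at E11.5 and 38.9 and 38.5 CPM at E12.5. Srrm4 had 2.95 and 5.74 CPM at E11.5 and 1.28 and 1.31 CPM at E12.5. Several pools come from the same stage. Lefty2 itself had 43.4 and 192 CPM at E11.5 and at most 5.83 CPM in every pool from E14.5 on.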

How the data were processed

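Gene expression was read in the deposited table of raw UMI counts per gene and cell, whole numbers with no normalization by the authors, and each cell's stage, gate and library came from the deposited cell table. The build was mm10, and STAR, Subread with featureCounts, UMI-tools and CASAVA 1.8 are named, per the submitters' processing notes. Annotation and strand setting: not given in the sources used here. Without a known strand setting, overlapping and antisense genes cannot be told apart. The count table ends within a row, which was dropped, leaving 16344 genes; genes of other chromosomes were not analysed here. Hand-picked cells were not run through a doublet caller.

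CPM is the count over the sum of the genes read. Counts were summed per library, stage and gate into pools of at least 5 cells (18 germ pools, 1231 cells; 8128524 and 10984502 UMIs at E11.5) and tested with edgeR 4.0.16 in R 4.3.3 (quasi-likelihood test, TMM, filterByExpr, Benjamini-Hochberg at 0.05). One fit held all germ pools and one the pools of both gates at E11.5 and E12.5. The standard error is the log2 fold change over the square root of F. DESeq2 1.42.0, limma 3.58.1, other scalings, filters and left-out libraries were alternatives. Scripts were tested on simulated data. Shares have exact binomial intervals that cover counting error only. Single cells were thinned at random to 30000 UMIs. Positions came from GENCODE on GRCm38; 92 genes had no match. Named genes were the 12 highest and 12 lowest folds among called genes with at least 20 CPM and pools that did not overlap, without predicted and Rik symbols; examples from the gene lists were picked after their values were seen, beside the members called. The members and gene lists were chosen with earlier results of these data known.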

Additional observations from a re-analysis of the deposited data

Results flagged for a closer look

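Ccdc136, a coiled-coil protein gene named in the comparison with E13.5, had E11.5 pools on opposite sides of the E12.5 pools in the 2 gates. Germ pools had 1.599 and 0.91 CPM at E11.5 and 4.29 and 2.73 CPM at E12.5, so both E11.5 pools were lower. Negative pools had 94.2, 195 and 58.1 CPM at E11.5 and 47.9 and 14.3 CPM at E12.5, so all 3 E11.5 pools were higher. The difference between the log2 folds was -3.20 ± 1.10 (SE; edgeR p = 0.0118, adjusted p = 1.00), which does not pass over 6953 genes.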

How the results depend on the processing

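The 7 genes called between E11.5 and E12.5 became 4 with upper-quartile scaling, 24 with DESeq2, 60 with no filter on low counts, 3 with Anxa5 below 20 CPM, 3 with cells thinned to 30000 UMIs and 0 with only the pools of these 2 stages. Leaving out 1 library at a time gave 3 to 8 calls, the lowest without library 7. All 17 alternatives kept a fold below 0 for Sycp1, Mael, Scml2 and Slc25a31; the call was lost in 3, 4, 8 and 7 of them. Sox2 turned to a log2 fold of -0.35 without library 1 and Nanog to -0.25 without library 7, both with an adjusted p of 1.00.

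The comparison with E13.5 gave 32 to 124 calls with 1 library left out, 54 without library 7, and 91 with upper-quartile scaling. The comparison of gates gave 794 to 1961 calls with 1 library left out, 794 of them without library 1 and 1066 without library 7. With the library as a replicate block, possible because libraries 1 and 7 hold both gates, it gave 2354 calls. For the difference of the stage change between the gates, DESeq2 called 3 genes and the fit with library as a replicate block 24, where the main count was 0, and leaving out any 1 library gave 0. That difference turned to -1.65 for Sycp1 without library 9 and to -0.14 with the replicate block, and to -0.11 for Slc25a31 without library 2 and -0.10 with the replicate block. No paired analysis was possible because no library holds germ cells of both E11.5 and E12.5.

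The X-linked percent of the E11.5 and E12.5 germ pools against the Negative pools of both stages differed by 0.49 points with genes of at least 10 CPM (exact permutation p = 0.0159) and by 0.41 points over all genes (p = 0.0635). At the deposited depth the share of E11.5 cells with a Lefty2 UMI was 80.2%, against 62.2% when thinned, and that with a Nanog UMI 100%, against 99.2%. Alternatives that leave out the macrophage-marker cell, the added left-out libraries of E13.5 and the 10 X-linked genes with the most UMIs were chosen after seeing the data. The cause of these changes was not tested.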

Other observations

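A group of 5 cells of library 2 at E11.5 was sorted in the BV gate, whose meaning the labels do not spell out, and belongs in no comparison above. Their summed counts gave 132 CPM of Dppa3 and 74.7 CPM of Prdm1, against 1476 and 1834 CPM of Dppa3 and 167 and 143 CPM of Prdm1 in the germ pools. They had 910 CPM of Anxa5 and 110 CPM of Wt1, a gonadal somatic factor. Nanog was at 35.2 CPM in them.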
